A study of Mus musculus with 5 samples.

Results

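The insulin-like growth factor (IGF) system was represented on the array by 10 probes for 9 genes, out of 223 probes and 203 named genes in all. They were taken by their annotated gene: Igf1, with 2 probes that were kept apart, and Igf2, Igf1r, Igf2r, Insr, Igfbp3, Igfbp4, Igfbp5 and Igfbp6, with 1 probe each. RNA came from the soleus, a slow postural calf muscle, of 5 C57Bl/6 mice whose titles carry the marks HUR, wt and R7 and the numbers 1, 3, 4, 5 and 6. All 5 were reloaded mice, at day 7 by the series title, and each array received 3 microgram of total RNA from frozen muscle sections. The mark HUR is not spelled out and was not interpreted, and the sources used here describe neither the ages of the mice nor how they were treated before reloading. No other group was analysed here, so the values describe the spread between 5 reloaded mice and no difference between conditions was tested.

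IGF1 and IGF2 are small secreted hormones that act on muscle fibres and their precursor cells, and IGF1 in particular is known for its part in muscle growth and regeneration. Both signal through the IGF1 receptor, a tyrosine kinase encoded by Igf1r, and at lower affinity or through one of its isoforms the insulin receptor encoded by Insr can also bind them. The product of Igf2r carries IGF2 to the lysosome and does not signal as a kinase. IGF binding proteins hold most of the extracellular hormone: they prolong its life and, depending on the protein and its proteolysis, restrain or release it.

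The values are deposited array intensities in arbitrary units, linear and on an unknown reference, and some lie below 0 on every array. How bright a probe is depends on the probe as well as on the transcript, so the brightness of one gene's probe was not read against that of another. What can be read is how a probe, or the ratio of 2 probes on the same array, differs between mice. A ratio within an array does not change when all values of that array are multiplied by a factor, which matters here because the total signal ran from 70.8 to 137 between arrays. The array of mouse 1 stood apart from the rest. Over all 10731 pairs of the 147 probes above 0 on every array, the median SD over mice of the log2 ratio was 0.75, and 0.55 without mouse 1, whereas it was 0.70 to 0.80 when any other mouse was left out. Results that rest on mouse 1 are therefore given with and without it. The tissue label was matched by the marker genes. All 7 fibre markers on the array were above 0 on all 5 arrays, against 65.9% of all 223 probes. The 7 included the slow myosin Myh7. Of 11 listed immune cell markers, only 2, Il1b and Il6, were on the array. Both were at or below 0 on all 5 arrays, which does not show that immune cells were absent. In RNA of whole muscle, fewer cells of a type and less RNA per cell cannot be told apart.

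Of the 10 probes, 8 were above 0 on all 5 arrays, against 65.9% of all 223 probes. These were both Igf1 probes, Igf2, Igf2r and the 4 binding protein probes. The other two were the probes of the receptor kinases, Igf1r and Insr. With a stricter rule, by which a value had to exceed the size of the most negative value on the same array, 7 of the 10 passed on all arrays, against 45.3% of all probes. Igfbp3 was the probe lost by that rule. The size of the most negative value, which gives an idea of the noise around 0, ran from 0.0041 in mouse 4 to 0.0168 in mouse 1.

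**Figure D1:**
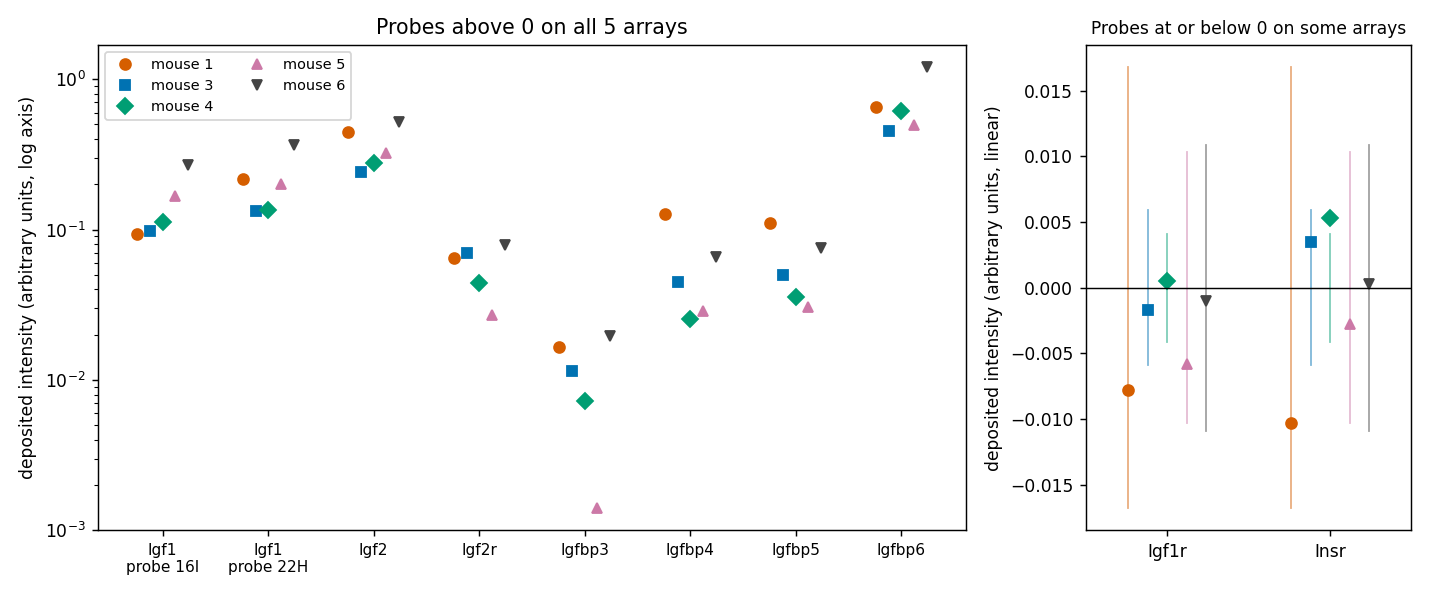
Deposited intensity of each IGF system probe in each of the 5 mice. On the left, 8 probes above 0 on all arrays are shown on a log axis. On the right, Igf1r and Insr are shown on a linear axis, with vertical lines spanning plus and minus the size of the most negative value of each array. All Igf1r values lie inside these spans, and among the Insr values only that of mouse 4, 0.0053, lies outside.

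The receptor kinase Igf1r gave no signal clear of the noise in any mouse, and Insr gave one in mouse 4 alone. In mice 1, 3, 4, 5 and 6, Igf1r was at -0.0078, -0.0017, 0.0005, -0.0058 and -0.0010. It was thus above 0 in mouse 4 alone, and above the noise of its array in 0 of 5 mice. Insr was at -0.0103, 0.0035, 0.0053, -0.0028 and 0.0003 in mice 1, 3, 4, 5 and 6. It was above 0 in 3 mice and above the noise in 1, mouse 4. Such values bound the signal of these probes by the background and do not show that the transcripts were absent. Of 11 other tyrosine kinase receptors of growth factors on the array, 9 were above 0 on all arrays, 2 on some and 0 on none. Over all 223 probes, 65.9% were above 0 on all arrays. By the stricter rule, Flt1, Fgfr4, Pdgfra and Tek among the 9 did not pass on every array. Flt1 was at 0.0030 in mouse 1, Pdgfra at 0.0086 in mouse 5, and Fgfr4 at 0.0035, 0.0059 and 0.0075 in mice 3, 5 and 6. Fgfr2, an FGF receptor, was at 0.231 ± 0.0985 (SD, n = 5). Among the 9, Tek, the angiopoietin receptor, had the largest coefficient of variation (CV, the SD in percent of the mean), 83.5%. However, its values of 0.0019 in mouse 1, 0.0009 in mouse 5 and 0.0107 in mouse 6 lay within the noise.

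Igf2r, the clearing receptor for IGF2, was measured in every mouse. Mice 1, 3, 4, 5 and 6 had deposited values of 0.0644, 0.0694, 0.0441, 0.0269 and 0.0790. The CV was 37.0%, against a median of 45.2% over 147 probes. Mouse 5 was lowest, and without it the CV was 22.9%. With each array scaled to the median of its 147 measured probes, mouse 5 was still lowest at 0.667 and mouse 3 was highest at 1.54, with the other mice at 1.00 to 1.16. Whether mouse 5 carried less Igf2r relative to its ligand can be read from the ratio on the same array. The log2 ratio of Igf2 to Igf2r was 2.80, 1.79, 2.66, 3.59 and 2.72 in mice 1, 3, 4, 5 and 6, a span of 3.48-fold. The ratio in mouse 5 was the highest and that in mouse 3 the lowest, and leaving out either one brought the SD from 0.64 to 0.47 or 0.44.

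Igf2, the ligand with 1 probe, varied little once differences between whole arrays were taken out. Its deposited values were 0.447, 0.240, 0.278, 0.325 and 0.522 in mice 1, 3, 4, 5 and 6, a CV of 32.7%. Scaled to the array median, they were 8.05, 5.33, 6.31, 8.05 and 6.63, a CV of 17.1%, against a median of 33.3% over all measured probes on that scale. Of these probes, 13.6% had a smaller CV. Mouse 3 was lowest on both scales, while the highest was mouse 6 as deposited and mouse 1 after scaling, level with mouse 5.

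Igf1 was higher in mice 5 and 6 than in mice 3 and 4 with both of its probes, as deposited and under all 3 scalings tried. Probe 16I was at 0.0938, 0.0982, 0.113, 0.166 and 0.270 in mice 1, 3, 4, 5 and 6 as deposited. Probe 22H was at 0.218, 0.133, 0.135, 0.200 and 0.367 in the same order. Without mouse 1 both probes put the mice in the order 3, 4, 5 and 6, from low to high. Scaled to the median, 16I was at 2.18, 2.56, 4.12 and 3.42 in mice 3, 4, 5 and 6, and 22H at 2.95, 3.07, 4.95 and 4.65. Both probes then had mouse 5 above mouse 6, and mice 3 and 4 below them. Mouse 1 separated the probes: on the scaled values it was the lowest of 5 with 16I, at 1.69, and the third of 5 with 22H, at 3.93.

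The agreement of the Igf1 probes was close in 4 mice and poor in mouse 1. As a ratio within the array, 16I over 22H was 0.430, 0.737, 0.833, 0.831 and 0.736 in mice 1, 3, 4, 5 and 6. On the log2 scale the ratio was -0.53 ± 0.40 (SD, n = 5), and without mouse 1 it was -0.35 ± 0.10. Over 4 mice the ratio thus spanned 1.13-fold, and over all 5 it spanned 1.94-fold. Of all pairs of measured probes, 14.9% had a smaller SD with 5 mice, and 1.11% without mouse 1. Fn1 (fibronectin), the other gene with a pair of probes, had a log2 ratio between them of -3.23 ± 0.17 (SD, n = 5), in which mouse 1, at -3.01, was the highest of 5 but close to -3.16 in mouse 5. Both Igf1 values of mouse 1, 0.0938 and 0.218, exceeded the size of the most negative value of that array, 0.0168. With each array's own such size added to all its values, the SD over mice was 0.35. Which stretches of the transcript the Igf1 probes cover is not stated in the sources used here.

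The ratio of Igf2 to Igf1 within an array followed the probe used for Igf1. Against 22H, Igf2 over Igf1 was 2.05, 1.81, 2.06, 1.63 and 1.42 in mice 1, 3, 4, 5 and 6. Its log2 value was 0.83 ± 0.23 (SD, n = 5), the smallest SD of the 28 pairs of the 8 measured IGF system probes with all mice. Without mouse 1 its SD was also 0.23 and was larger than those of the Igf1 probes, Igfbp5 with Igfbp4, and Igf2 with 16I. Against 16I the ratio was 4.77 in mouse 1 and 2.45, 2.47, 1.96 and 1.94 in mice 3, 4, 5 and 6. Its log2 value was 1.35 ± 0.53 (SD, n = 5), or 1.13 ± 0.20 without mouse 1. With either probe the ratio was lowest in mouse 6, next in mouse 5, and higher in mice 3 and 4. The distance between mouse 6 and mouse 4, the higher of those, was 1.45-fold with 22H and 1.28-fold with 16I. Because probes differ in brightness, a ratio above 1 does not show that Igf2 transcripts outnumbered those of Igf1.

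**Figure D2:**
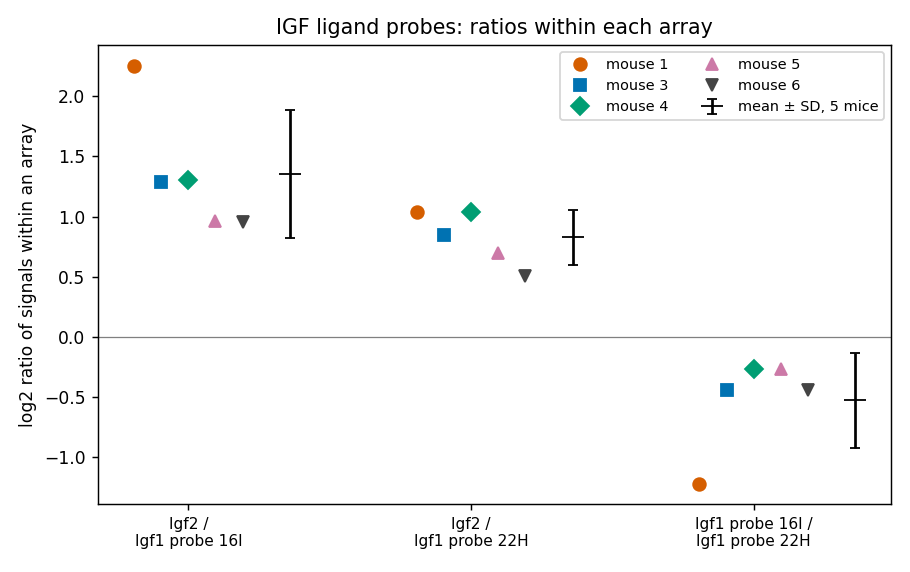
Log2 ratios of the IGF ligand probes within each array, 1 point per mouse, with the mean and SD over 5 mice in black. Mouse 1 lies apart where probe 16I enters, at 2.25 for Igf2 over 16I and -1.22 for 16I over 22H, and lies among the others for Igf2 over 22H at 1.04.

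Most endothelial markers split the mice alike, but Flt1 did not. All 6 of those on the array were above 0 on all arrays, against 65.9% of all 223 probes. Their summed signal in units of the array median was 7.50, 8.17, 11.6, 12.6 and 11.1 in mice 1, 3, 4, 5 and 6. After this scaling, Cdh5, Cd34, Pecam1 and Kdr, 4 of the 6, were higher in mice 4, 5 and 6 than in mice 1 and 3. For Kdr the margin was small, at 1.016 in mouse 4 against 1.00 in mouse 1. The order among mice 4, 5 and 6 was not the same for all 4. Flt1, a VEGF receptor, was instead at 0.796 in mouse 3 against 0.469 in mouse 5 and 0.632 in mouse 6. Tek was within the noise in mice 1, 5 and 6, so its order was not read. Igf1 probe 16I shared the split of these 4. It was at 2.56, 4.12 and 3.42 in mice 4, 5 and 6 against 1.69 and 2.18 in mice 1 and 3. Igfbp6 also shared the split, at 14.0, 12.2 and 15.3 against 11.7 and 10.0 in the same mice. Igf1 probe 22H shared only part of the split, since it was lower in mouse 4, at 3.07, than in mouse 1, at 3.93. The part of endothelial RNA in the Igf1 and Igfbp6 values was not tested. The 3 probes whose ratio to 16I was steadiest over the mice, out of 139 named probes, were Pecam1, an endothelial adhesion molecule, the angiogenin family gene Ang2, whose paralogue Ang is also on the array, and the endothelial cadherin Cdh5, with SDs of the log2 ratio of 0.25, 0.26 and 0.27. For 22H they were the growth factor Tgfb1, the VEGF receptor Kdr and Igf2, at 0.17, 0.22 and 0.23. For Igf2 they were the cytochrome oxidase subunits Cox5b and Cox4i1 and the growth factor Vegfa, at 0.08, 0.12 and 0.14. Each set holds the 3 smallest of 139 values over only 5 arrays, and is given as a description.

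Among the binding proteins, Igfbp4 and Igfbp5 followed each other across the mice. Igfbp4, an inhibitor of IGF action in most settings, was at 0.127, 0.0451, 0.0254, 0.0287 and 0.0655 in mice 1, 3, 4, 5 and 6. Igfbp5, a binding protein that muscle cells make as they differentiate, was at 0.110, 0.0495, 0.0355, 0.0304 and 0.0753. Both were highest in mouse 1, next in mouse 6, then in mouse 3, and lowest in mice 4 and 5. The log2 ratio of Igfbp5 to Igfbp4 was -0.20, 0.13, 0.48, 0.08 and 0.20 in the 5 mice, with an SD of 0.25, and 4.03% of all probe pairs had a smaller one. Without mouse 1 the SD was 0.18, and 4.98% of all pairs were smaller, so the likeness of these probes was not set by mouse 1. Neither was the other's steadiest partner among 139 named probes. With all mice the SD was 0.15 for Igfbp4 with the cathepsin gene Ctsh, and also 0.15 for Igfbp5 with the cell cycle inhibitor Cdkn2d.

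Since the probes of Igfbp4 and Igfbp5 moved together, the 250 bases before their RefSeq start sites are shown, read 5′ to 3′ on the strand of the gene, in build GRCm38.p6. They lie at chr11:99040994-99041243 on the plus strand for Igfbp4 and at chr1:72874866-72875115 on the minus strand for Igfbp5. Capitals mark a match to TATAAA or TATNNAA, letters of the TATA box that positions the transcription machinery, where N is any base. These motifs overlap in what they match, and both strands were searched.
Igfbp4: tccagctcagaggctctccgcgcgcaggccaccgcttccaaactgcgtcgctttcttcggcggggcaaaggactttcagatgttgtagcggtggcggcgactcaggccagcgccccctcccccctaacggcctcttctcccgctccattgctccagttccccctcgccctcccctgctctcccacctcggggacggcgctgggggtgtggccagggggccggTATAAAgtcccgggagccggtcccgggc
Igfbp5: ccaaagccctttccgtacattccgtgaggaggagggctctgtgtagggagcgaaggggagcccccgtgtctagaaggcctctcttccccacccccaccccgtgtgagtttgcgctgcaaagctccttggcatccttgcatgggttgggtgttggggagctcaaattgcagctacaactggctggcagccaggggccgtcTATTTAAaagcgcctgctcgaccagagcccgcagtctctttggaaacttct
Igfbp4 held 1 match to TATAAA, which began 28 bases before the start site, and Igfbp5 held 1 match to TATNNAA, which began 51 bases before it. Of 32851 promoter windows of this length, 12.4% held TATAAA and 29.0% held TATNNAA on either strand. The windows of Igfbp4 and Igfbp5 were 69.2% and 58.8% G or C, against a median of 52.4%. Promoter activity was not measured, and a match is not evidence of use.

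Mouse 1 had the highest signal of Igfbp4 and Igfbp5 by a clear margin after median scaling. It was the highest mouse for both as deposited, with median and total scaling, and after quantile normalisation. In units of the array median, Igfbp4 was at 2.29 in mouse 1 and between 0.576 and 1.00 in the other mice, and Igfbp5 was at 1.99 against 0.754 to 1.10. The CVs on this scale were 64.1% and 44.9%, against a median of 33.3% over all measured probes. As deposited the CV of Igfbp4 was 71.3%, and 44.6% without mouse 1. Scaled to the array total, where mouse 1 has the largest divisor, the CVs were 43.8% and 27.7%. The median over all measured probes on that scale was 33.0%. Igfbp4 was then at 0.0925% of the total in mouse 1 and 0.0533% in mouse 3, the next mouse. Igfbp5 was at 0.0803% and 0.0585% in the same mice. The summed signal of the 7 muscle fibre markers was also highest in mouse 1, at 401 array medians against 248 to 332 in the others, and its part in these values was not tested.

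Igfbp6, which prefers IGF2 over IGF1 as its ligand, did not share this pattern. As deposited it was at 0.651, 0.452, 0.617, 0.492 and 1.20 in mice 1, 3, 4, 5 and 6. Mouse 6 stood above the others, and without it the CV fell from 44.3% to 17.4%. Scaled to the array median, the values were 11.7, 10.0, 14.0, 12.2 and 15.3 in mice 1, 3, 4, 5 and 6, a CV of 16.1%. Within arrays, Igfbp6 over Igfbp5 was 5.91, 9.13, 17.4, 16.2 and 16.0 in mice 1, 3, 4, 5 and 6. Igfbp6 over Igfbp4 was 5.13, 10.0, 24.3, 17.1 and 18.4 in the same order. With both denominators, mouse 1 was the lowest, mouse 3 came next and mice 4, 5 and 6 were higher. The ratio spanned 2.94-fold for Igfbp5 and 4.74-fold for Igfbp4, and 1.91-fold and 2.43-fold without mouse 1.

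Igf2 and Igfbp6 held a steadier ratio than Igf2 and the other binding proteins. The log2 ratio of Igf2 to Igfbp6 was -0.54, -0.91, -1.15, -0.60 and -1.20 in mice 1, 3, 4, 5 and 6, with a mean of -0.88 ± 0.30 (SD, n = 5). It spanned 1.58-fold, and 7.39% of all probe pairs had a smaller SD. Against Igfbp5 and Igfbp4 the SDs were 0.56 and 0.72, with mouse 1 lowest in both. The ratio of Igf2 to Igfbp4 ran from 3.52 in mouse 1 to 11.3 in mouse 5, and that of Igf2 to Igfbp5 from 4.05 in mouse 1 to 10.7 in mouse 5. Without mouse 1 the span of the first fell from 3.21-fold to 2.12-fold and its SD to 0.51, and the second spanned 2.20-fold in place of 2.63-fold. For Igfbp6 the 3 named probes of steadiest ratio were Cd34, which endothelial and progenitor cells carry, Kdr and the FGF receptor Fgfr1, at SDs of 0.09, 0.17 and 0.19. For Igfbp5 they were the cell cycle inhibitor Cdkn2d, the replication factor Pcna and the angiotensin-converting enzyme Ace, at 0.15, 0.18 and 0.19.

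**Figure D3:**
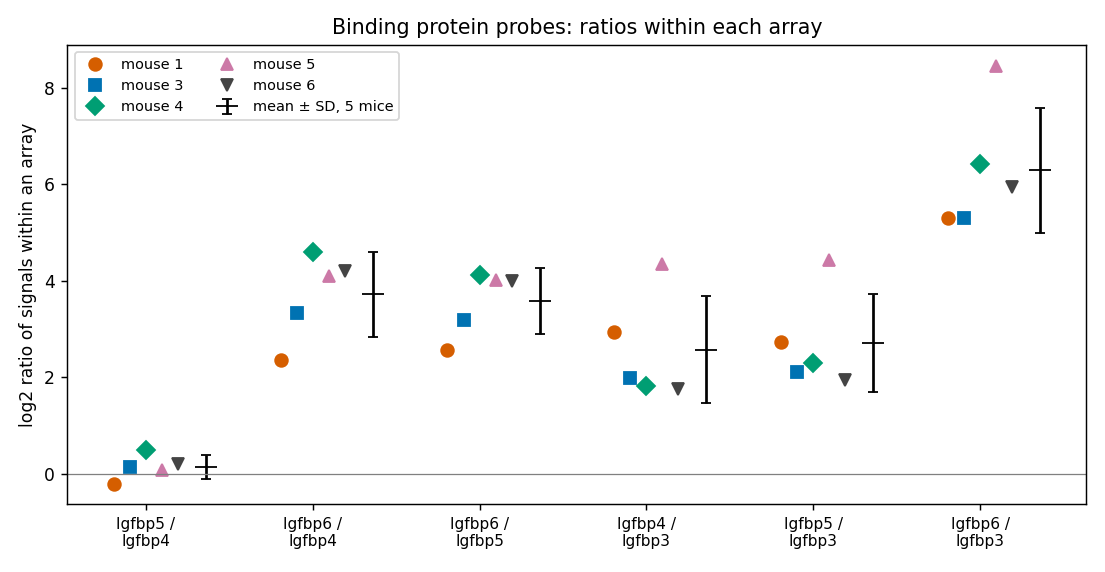
Log2 ratios between the binding protein probes within each array, 1 point per mouse, with the mean and SD over 5 mice in black. Igfbp5 over Igfbp4 stays between -0.20 and 0.48. Mouse 1 is lowest in Igfbp6 over Igfbp4 and Igfbp6 over Igfbp5, and mouse 5 is highest in the 3 ratios over Igfbp3.

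Igfbp3, the main carrier of IGFs in blood, was dim. Mice 1, 3, 4, 5 and 6 gave 0.0165, 0.0114, 0.0072, 0.0014 and 0.0195, and the probe exceeded the noise of its array in 3 of 5 mice, not in mice 1 and 5. Ratios to Igfbp3 were led by the low value of mouse 5, which lies below the 0.0103 that marks the noise on that array. Igfbp5 over Igfbp3 was 21.7 in mouse 5 and 3.86 to 6.69 in the other mice, and the SD of its log2 value fell from 1.01 to 0.34 without mouse 5. For Igfbp4 over Igfbp3 the SD was 1.11 and 0.56 without mouse 5, and for Igfbp6 over Igfbp3 it was 1.30 and 0.54. Since Igfbp3 was within the noise in mice 1 and 5, ratios to it have no firm size in either. In mice 3, 4 and 6, Igfbp5 over Igfbp3 was 4.34, 4.93 and 3.86.

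**Figure D4:**
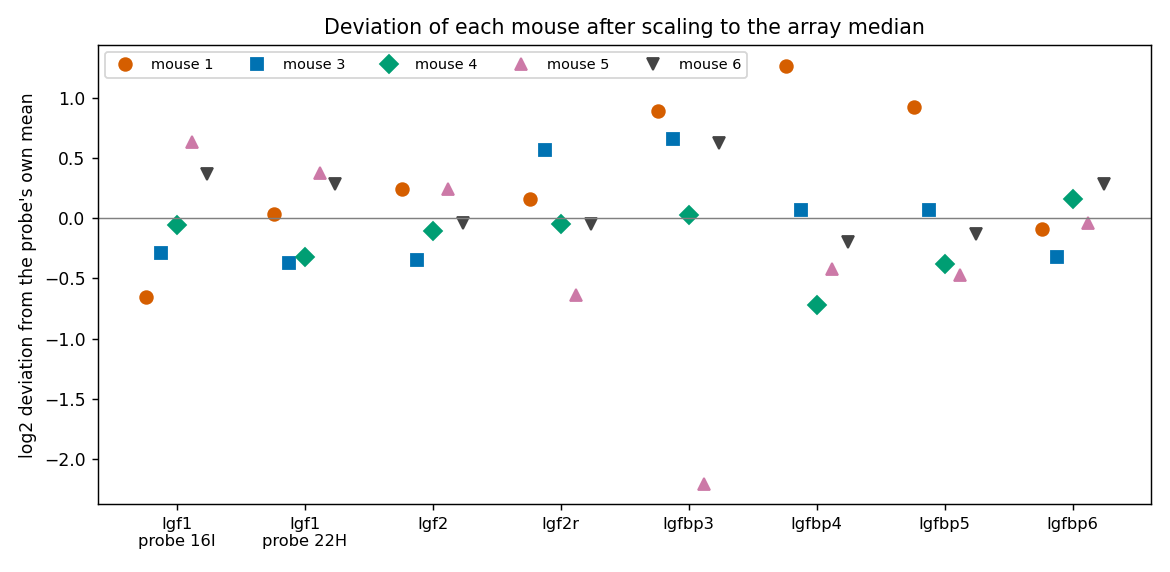
Log2 deviation of each mouse from the mean of each probe, after scaling every array to the median of its measured probes, for 8 IGF system probes. Mouse 1 lies above the other mice for Igfbp4 and Igfbp5 and below them for Igf1 probe 16I, and mouse 5 lies far below the others for the dim Igfbp3.

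The 28 pairs of the 8 measured IGF system probes had a median SD of 0.71, close to 0.75 over all pairs of measured probes, and 12 of the 28 lay above that value. All 7 pairs with Igfbp3, whose value in mouse 5 is within the noise, were among the 12, at 0.93 to 1.69. The 21 pairs without Igfbp3 had a median of 0.64, with 5 above 0.75, and the widest was 16I with Igfbp4, at 1.19. The closest were Igf2 with Igf1 probe 22H, at 0.23, and Igfbp5 with Igfbp4, at 0.25, and without mouse 1 they were the Igf1 probes, at 0.10, and again Igfbp5 with Igfbp4, at 0.18.

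Other genes of the IGF system gave the following picture. None of the 29 listed signalling genes downstream of the receptors, such as Irs1 and Akt1, was found among the named probes, so that level of the pathway was not analysed here. Of the other ligands and partners of the axis, 3 were on the array. Ghr, the growth hormone receptor, through which growth hormone raises Igf1, was above 0 in all mice, at 0.0403, 0.0404, 0.0469, 0.0358 and 0.0726 in mice 1, 3, 4, 5 and 6. Its CV was 31.2% as deposited and 13.3% after median scaling. Igfbp1 and Igfbp2, binding proteins known mainly from liver and other organs, were each above 0 in 3 of 5 mice, from -0.0062 to 0.0024 and from -0.0029 to 0.0077.

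Of 6 proteases known to cut IGF binding proteins, 3 were above 0 on all arrays, 2 on some and 1, Mmp9, on none. The share of all 223 probes above 0 on all arrays was 65.9%. The gelatinase Mmp2 was at 0.0547, 0.0596, 0.0180, 0.0115 and 0.0386 in mice 1, 3, 4, 5 and 6. Mice 4 and 5, lowest in Mmp2, were also lowest in Igfbp4 and Igfbp5. Plg (plasminogen) had the largest CV among the 3 above 0 on all arrays, 66.9%, but its values of 0.0106 in mouse 1 and 0.0065 in mouse 5 lay within the noise. All 6 probes of the fibroblast and matrix markers were above 0 on all arrays, against 65.9% of all probes. Their summed signal was 28.6, 27.6, 14.8, 16.9 and 31.2 array medians in mice 1, 3, 4, 5 and 6. Between 72.6% and 77.3% of the sum was Fn1 probe 9D, and the sum was highest in mouse 6. The members differed in order. The thrombospondin Thbs2, Fn1 probe 4D and the PDGF receptor Pdgfrb were highest in mouse 1, at 0.505, 2.74 and 0.924 array medians. Igfbp4 and Igfbp5 were also highest in that mouse. Fn1 probe 9D and Tnc, the matrix protein tenascin C, were highest in mouse 6, at 24.1 and 3.25. Pdgfra, another PDGF receptor, was highest in mouse 3, at 1.075. The part of these cells in the binding protein values was not tested.

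Of 9 muscle genes known to respond to IGF1 or insulin, 7 were above 0 on all arrays, against 65.9% of all 223 probes. Myod1, a myogenic factor, was above 0 in 4 mice and Myf5, another, in 0. Mef2c, a muscle transcription factor, was at 0.368 ± 0.0837 (SD, n = 5), with a CV of 22.7%. Cdkn1a, a cell cycle inhibitor, had the largest CV of the 7, 139%, with 0.0645 in mouse 1 and 0.0037 to 0.0155 in the others. Its values in mice 3 and 5 lay within the noise. The median CV of the 7 was 46.4% as deposited and 30.2% after median scaling, against 45.2% and 33.3% over all measured probes.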

How the data were processed

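Gene expression in soleus of 5 reloaded mice was measured on 1 array per mouse. The deposited values are linear intensities in arbitrary units, and their background correction and scaling are not stated in the sources used here. Gene names come from the platform annotation, updated through the gene identifier: 205 of 223 probes had 1 symbol and 18 had none. The members and gene lists were chosen with earlier results of these data known.

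Levels are given as deposited and after scaling each array to the median of the 147 probes above 0 on all arrays. Ratios of probes are log2 differences within an array, without a pseudocount, with mean and SD over 5 mice. The SD of a pair was set beside those of all pairs of measured probes as a description, so no test was made. All IGF system probes were named. In other lists, the probe with the highest mean and that with the largest CV among those above 0 on all arrays were named, as a rule of choice and not a ranking of transcripts. For Igf2, each Igf1 probe, Igfbp5 and Igfbp6, the 3 probes of steadiest ratio were also named; for Igf1r, at or below 0 in most mice, this rule could not be applied. Myh7, Irs1, Akt1, Il1b, Il6, Ghr, Igfbp1, Igfbp2, Mmp9, Myod1, Myf5, Fn1, Flt1, Tnc and Pdgfrb were named after their values were seen. So were Pdgfra, Fgfr4, Ctsh and Mb. Promoter sequences are from RefSeq, GRCm38.p6, where 8 of 9 genes had an entry. Pair SDs and quantile normalisation were tested on simulated data. No arrays were copies of each other, with at most 1 identical value between 2 arrays. The number of arrays, 5, limits the precision. Python 3.11.15, numpy 2.4.6, pandas 2.3.3 and matplotlib 3.10.9 were used.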

Additional observations from a re-analysis of the deposited data

Results flagged for a closer look

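Of 32 sets of 5 values (deposited levels, median-scaled levels and ratios), 6 had a highest or lowest mouse whose gap to the next one, as a share of the whole range, exceeded 0.71, Dixon's 95% criterion for 5 values. Chance gives about 1 in 20 for independent, normally distributed sets, and these sets share probes and arrays, so that rate does not apply to their number.

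Mouse 1 was the distant one in 4 sets. It was lowest for the log2 ratio of Igf1 probe 16I to probe 22H, at -1.22 against -0.44 for the next mouse (gap of 0.812 of the range). For Igf2 over Igf1 probe 16I it was highest, at 2.25 against 1.30 (0.729). On median-scaled levels it was highest for Igfbp4, at 2.29 against 1.00 (0.753), and for Igfbp5, at 1.99 against 1.10 (0.722). Mouse 6 was highest for the deposited value of Igfbp6, at 1.20 against 0.651 (0.734). Mouse 5 was highest for the log2 ratio of Igf2 to Igfbp3, at 7.86 against 5.27 (0.747), where its Igfbp3 value was within the noise of the array.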

How the results depend on the processing

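Over 14 ratios and 112 alternative settings (quantile normalisation, an added background, a pseudocount of 0.01, each mouse left out), the mean log2 ratio kept its sign in all. It moved by more than 1 SD in 1, Igfbp5 over Igfbp3, at 1.68 with the pseudocount against 2.71. For ratios to Igfbp3 that SD is itself widened by mouse 5, and all 4 depended on the background: with the size of the most negative value added, Igf2 over Igfbp3 was 4.25 in place of 5.41, Igfbp6 5.12 in place of 6.29, Igfbp4 1.62 in place of 2.57 and Igfbp5 1.75 in place of 2.71, the last with an SD of 0.16 in place of 1.01. The SD between the Igf1 probes, 0.40, ran from 0.10 to 0.45 when each mouse was left out, with the lowest value without mouse 1, and was 0.30 after quantile normalisation. Of 64 alternative settings for the CVs of the 8 measured probes, 18 moved the CV by over 1.5 times; for Igf2 it was 32.7% as deposited and 11.9% after quantile normalisation. As deposited, ratios of Igf1r to Insr or Igf2r had a value in 1 mouse and Insr over Igf2r in 3, since values at or below 0 have no log, so no mean is given. With the size of the most negative value added, Igf1r over Insr ran from -1.16 to 0.47 on the log2 scale, which is within the noise. Setting values at or below 0 to the lowest value above 0 on the array put Igf1r at that floor in 4 of 5 mice and Insr in 2, so their CVs then carry no information. No paired analysis was possible because all samples belong to 1 group. Without control arrays or repeat arrays, differences between mice and measurement noise cannot be told apart.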
